A study of Mus musculus with 4 samples.

Results

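The genes described here are 10 transcription factors of blood stem and progenitor cells, namely Myb, Runx1, Spi1, Erg, Fli1, Etv6, Ikzf1, Meis1, Lyl1 and Hhex. They were chosen by name, with earlier results of these data known. Each had 1 probe set that carried its symbol alone, so they account for 10 of 35556 probe sets and 10 of 19938 genes, and none shared a probe set with another gene. RNA recovered by immunoprecipitation was measured on 4 Affymetrix whole-transcript arrays, 2 with RNA pulled down by an antibody specific for an RNA-binding protein (RBP) and 2 with RNA pulled down by control rabbit IgG. The cells behind both groups were early erythroid progenitors of C57BL/6 fetal liver at E14.5, with no genotype or treatment named in the labels. Cells with CD34, CD41, CD16/32, Sca-1 or markers of mature lineages had been removed with magnets, and cells with c-Kit and low CD71 had then been sorted. The labels leave the protein unnamed. It is assumed to be ZFP36L2 on the basis of the published work, an assumption not checked against the antibody.

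These factors keep stem and progenitor cells undifferentiated or steer them towards a lineage, and several of them bind one another's genes in a shared circuit. MYB, RUNX1 and the ETS factors are active in blood-forming cells of the fetal liver. ZFP36L2 belongs to the tristetraprolin family, whose members recognise AU-rich stretches of mRNAs and promote their decay. An immunoprecipitate of such a protein is compared with control IgG to ask which mRNAs the antibody recovered beyond the nonspecific level.

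Of the 10 factor mRNAs, the Ikzf1 mRNA alone was called higher on the RBP arrays, by 0.64 on the log2 scale or 1.56-fold, and none was called lower. A gene was called when limma's moderated test of RBP minus IgG, fitted over all 19938 genes, gave a Benjamini-Hochberg adjusted p under 0.05. At an unadjusted p under 0.05, limma had 2 of the factors higher (Ikzf1 and Lyl1) and 0 lower. By the same rule 23.8% of all genes were higher and 6.54% lower, and among genes whose mean exceeded the background level 36.4% were higher and 6.56% lower. The 4741 higher and 1304 lower genes became 7110 (35.7%) and 317 (1.59%) when each array was centred on the chemosensory genes, which moved the median of all genes to 0.29, and 1000 (5.02%) and 1065 (5.34%) when the trend on level was removed. Centring brought 4 factors above the threshold (Etv6, Ikzf1, Lyl1 and Hhex), and with the trend removed 0 were called higher and Meis1 was called lower. The background level, 5.35 on the log2 scale, is the 95th percentile of the mean levels of chemosensory receptor genes, and all 10 factors lay above it. The median difference of the 10 was 0.32, against -0.02 over all genes and 0.40 over genes above the background level, and it was below 0 with quantile normalization (-0.02) and with the trend on level removed (-0.29). The labels do not state that replicate arrays came from different batches of cells. The p-values therefore cover only the variation among the 4 arrays, part or all of which may be technical.

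**Figure D1:**
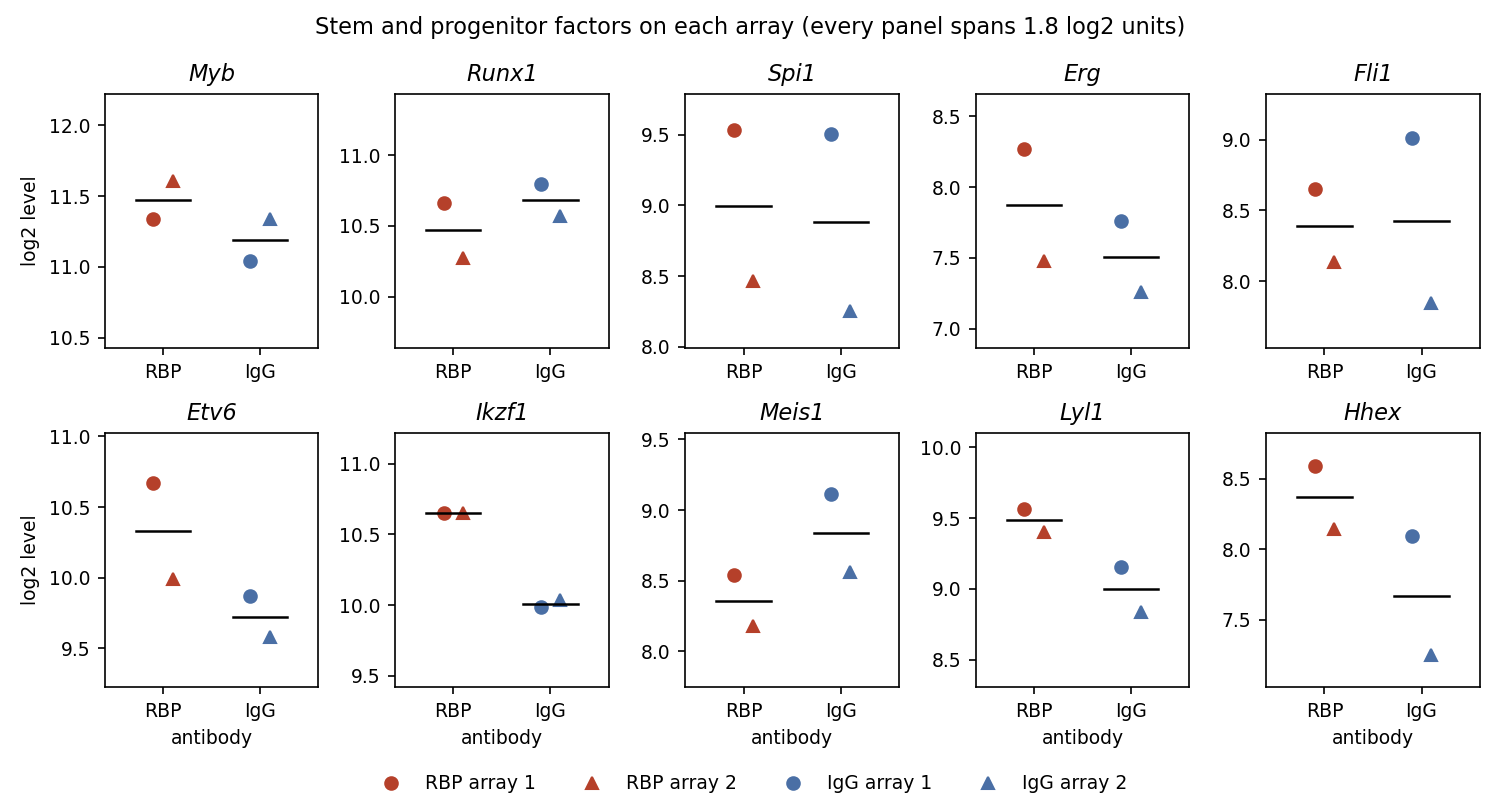
Log2 level (vertical axis) of each factor on RBP arrays (red) and IgG arrays (blue), with array 1 as a circle, array 2 as a triangle and the group mean as a line; each panel spans the same range. Ikzf1 shows the tightest pairs, at 10.65 and 10.65 on RBP arrays and 9.98 and 10.04 on IgG arrays, while the Spi1 pairs are more than 1 log2 unit apart in both groups.

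The RBP arrays had the lower medians and the wider spread. Median levels were 5.57 and 5.62 on the RBP arrays and 5.85 and 5.93 on the IgG arrays, and the interquartile range was 3.73 and 3.61 on the RBP arrays against 2.91 and 2.87 on the IgG arrays. All 8 early erythroid progenitor markers lay above the background level, with Gata1 at 9.76 and 10.19 on RBP arrays and 9.67 and 9.83 on IgG arrays. Transcripts of other blood cells were present too, among them Mpo, a granule enzyme of myeloid precursors, at 11.49 and 10.56 on RBP arrays and 11.40 and 10.53 on IgG arrays. Cd34, whose product was used to deplete cells, gave 9.74 and 8.98 on RBP arrays and 9.92 and 8.92 on IgG arrays. The number of arrays limited the precision, with a median standard error of 0.170 for a log2 difference.

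Ikzf1 encodes Ikaros, a zinc finger factor of lymphoid and early blood cells that recruits the NuRD chromatin complex. Its log2 level was 10.65 and 10.65 on the RBP arrays, against 9.98 and 10.04 on the IgG arrays. The groups did not overlap, and the gap between them was far wider than the gap within either pair. The difference was 0.64 ± 0.14 (SE), with a 95% confidence interval of 0.29 to 0.99 and an adjusted p of 0.0219 in limma. The call rested on having both RBP arrays, since limma gave an adjusted p of 0.179 without RBP array 1 and 0.162 without RBP array 2, although the difference stayed at 0.64 in each. It was also lost with quantile normalization, where the difference was 0.35 (limma, adjusted p = 0.176). Genes with mean levels of 10 to 11 had a median difference of 0.61, and the Ikzf1 difference was -0.0012 once a loess trend on level had been subtracted.

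Hhex and Meis1 are the homeobox members. HHEX is a repressor needed for early blood and endothelial development, and MEIS1 is a TALE-class partner of HOX and PBX proteins in stem cells. Hhex was at 8.59 and 8.15 on RBP arrays and at 8.09 and 7.25 on IgG arrays. Both RBP arrays were above both IgG arrays, but by only a small margin between the nearest pair. Its difference of 0.70 ± 0.31 had a confidence interval of -0.08 to 1.47 and did not pass (limma, adjusted p = 0.142). Without IgG array 1, the higher IgG array, the difference was 1.11 and passed (limma, adjusted p = 0.0253), and without IgG array 2 it was 0.28 (limma, adjusted p = 0.361). It was 0.27 with quantile normalization and -0.045 with the trend on level removed.

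Meis1 ran the other way, at 8.54 and 8.18 on RBP arrays and 9.11 and 8.56 on IgG arrays. It was the single factor with both RBP arrays below both IgG arrays, again by a narrow margin. The difference was -0.48 ± 0.24, with an interval of -1.07 to 0.11 (limma, adjusted p = 0.175). It kept its negative sign in all 15 alternative settings, with differences from -1.26 to -0.16. limma called it lower without IgG array 2 (-0.76, adjusted p = 0.0422) and with the trend on level removed (-1.26, adjusted p = 0.0328), and over all the settings the adjusted p ran from 0.0328 to 0.633.

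Lyl1 encodes a basic helix-loop-helix factor related to TAL1. It gave 9.57 and 9.40 on RBP arrays, against 9.16 and 8.84 on IgG arrays. The groups were separate, but the IgG arrays were further from each other than the nearest RBP and IgG arrays were (9.40 and 9.16). The difference was 0.49 ± 0.18, with an interval of 0.05 to 0.92, and missed the threshold (limma, adjusted p = 0.0856). Without IgG array 1 it was 0.65 and passed (limma, adjusted p = 0.0344). It turned to -0.04 with quantile normalization and to -0.27 with the trend on level removed.

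The 4 ETS members share a DNA-binding domain that reads GGAA core sites. ETV6 is a repressor required for adult stem cells, and Etv6 was the ETS member with the largest positive difference. Its levels were 10.67 and 9.99 on RBP arrays, against 9.87 and 9.58 on IgG arrays. RBP array 2 lay only slightly above IgG array 1, while RBP array 1 stood well above the rest. The difference of 0.61 ± 0.26 had an interval of -0.03 to 1.24 and did not pass (limma, adjusted p = 0.126). It was 0.27 without RBP array 1 and 0.95 without RBP array 2, neither of which passed (limma, adjusted p = 0.581 and 0.0749).

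Spi1 encodes PU.1, the ETS factor of myeloid and B cells that opposes GATA1. It gave 9.53 and 8.46 on RBP arrays and 9.51 and 8.25 on IgG arrays. The spread within each antibody was many times the difference between them. That difference was 0.12 ± 0.51, with the widest interval of the 10, from -1.13 to 1.37 (limma, adjusted p = 0.872).

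ERG and FLI1 are close relatives within the ETS family, ERG known for stem cell maintenance and FLI1 for megakaryocytes. Erg was at 8.27 and 7.48 on RBP arrays and 7.76 and 7.26 on IgG arrays. Fli1 was at 8.65 and 8.14 on RBP arrays and 9.01 and 7.84 on IgG arrays. In each case the groups overlapped, and for Fli1 the RBP values lay inside the range of the IgG values. The Erg difference was 0.37 ± 0.31, with an interval of -0.40 to 1.13 (limma, adjusted p = 0.387). The Fli1 difference was -0.03 ± 0.40, with an interval of -1.03 to 0.96 (limma, adjusted p = 0.953). When each array was left out in turn, Spi1 ran from -0.51 to 0.74, Erg from -0.03 to 0.76 and Fli1 from -0.62 to 0.55. Leaving out 1 array makes the array numbers unequal between the antibodies, so these ranges include the gap between arrays 1 and 2. Between arrays of the same number, RBP was above IgG at both numbers for Spi1 and Erg, and at number 2 alone for Fli1. The labels do not say that equal numbers mark a shared preparation.

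Myb encodes the activator that sustains proliferating progenitors. Its log2 level was 11.34 and 11.61 on RBP arrays and 11.04 and 11.34 on IgG arrays. The lower RBP array and the higher IgG array were level. The difference of 0.28 ± 0.18 had an interval of -0.17 to 0.74 (limma, adjusted p = 0.271), and it turned to -0.23 with the trend on level removed. Runx1 encodes the DNA-binding subunit of core-binding factor, which is required for blood stem cells to emerge. It gave 10.66 and 10.28 on RBP arrays and 10.80 and 10.57 on IgG arrays. RBP array 1 fell between the IgG arrays and RBP array 2 below them. The difference was -0.22 ± 0.19, with an interval of -0.69 to 0.26 (limma, adjusted p = 0.410), and it turned to 0.10 after centring on the chemosensory genes.

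**Figure D2:**
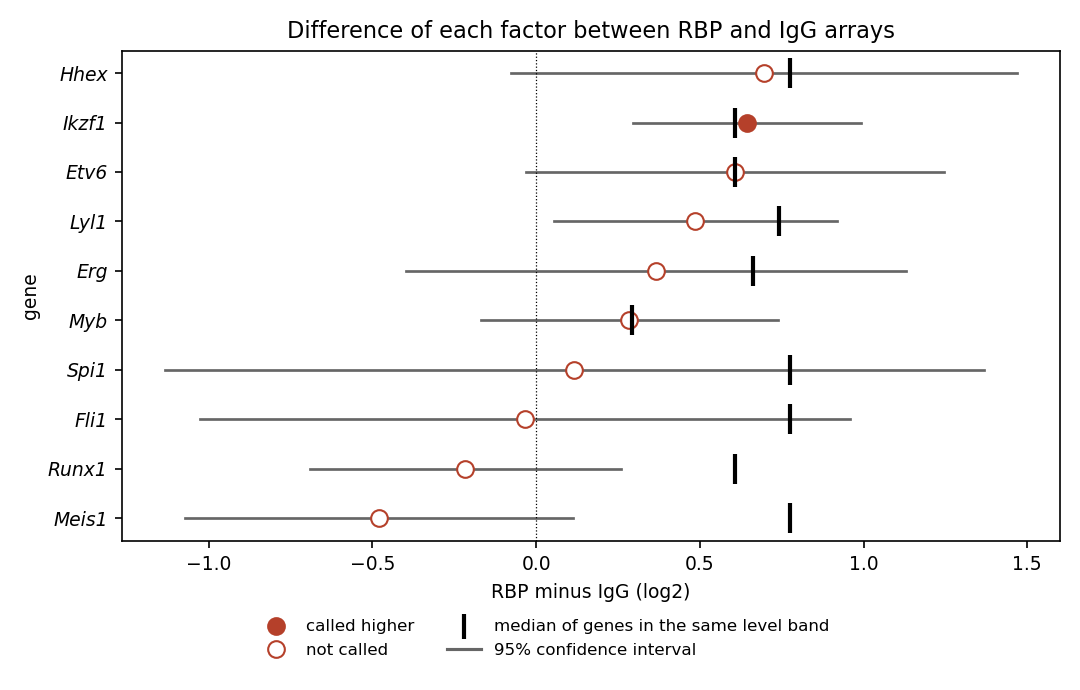
RBP minus IgG difference in log2 units (horizontal axis) for each factor, from Hhex at 0.70 down to Meis1 at -0.48, with its 95% confidence interval; the filled point is the called gene and black ticks give the median difference of all genes in the same band of mean level. The Ikzf1 and Lyl1 intervals lie above 0, and 8 of the 10 points lie to the left of their tick.

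In the data as deposited, 7 factors had a positive difference and 3 (Runx1, Fli1 and Meis1) a negative one. Both RBP arrays were above both IgG arrays for 4 factors (Etv6, Ikzf1, Lyl1 and Hhex) and below them for Meis1, while 5 overlapped. Over all genes these orders occurred in 37.4% and 36.2%. With 2 arrays against 2, an exact two-sided permutation test of a single gene cannot give a p below 0.333.

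The difference went with the level of a gene on these arrays, and each factor was also set beside genes of its own band. Median differences were 0.66 for mean levels of 7 to 8, 0.78 for 8 to 9, 0.74 for 9 to 10, 0.61 for 10 to 11 and 0.29 above 11. Of the 10 factors, 8 were below the median of their band, Etv6 was at it and Ikzf1 above it. The furthest below were Meis1 (-0.48), Fli1 (-0.03) and Spi1 (0.12), all in the band with a median of 0.78, and Runx1 (-0.22) in the band with a median of 0.61. Myb (0.28) was close to its band. This is a description of levels and differences, not a test.

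**Figure D3:**
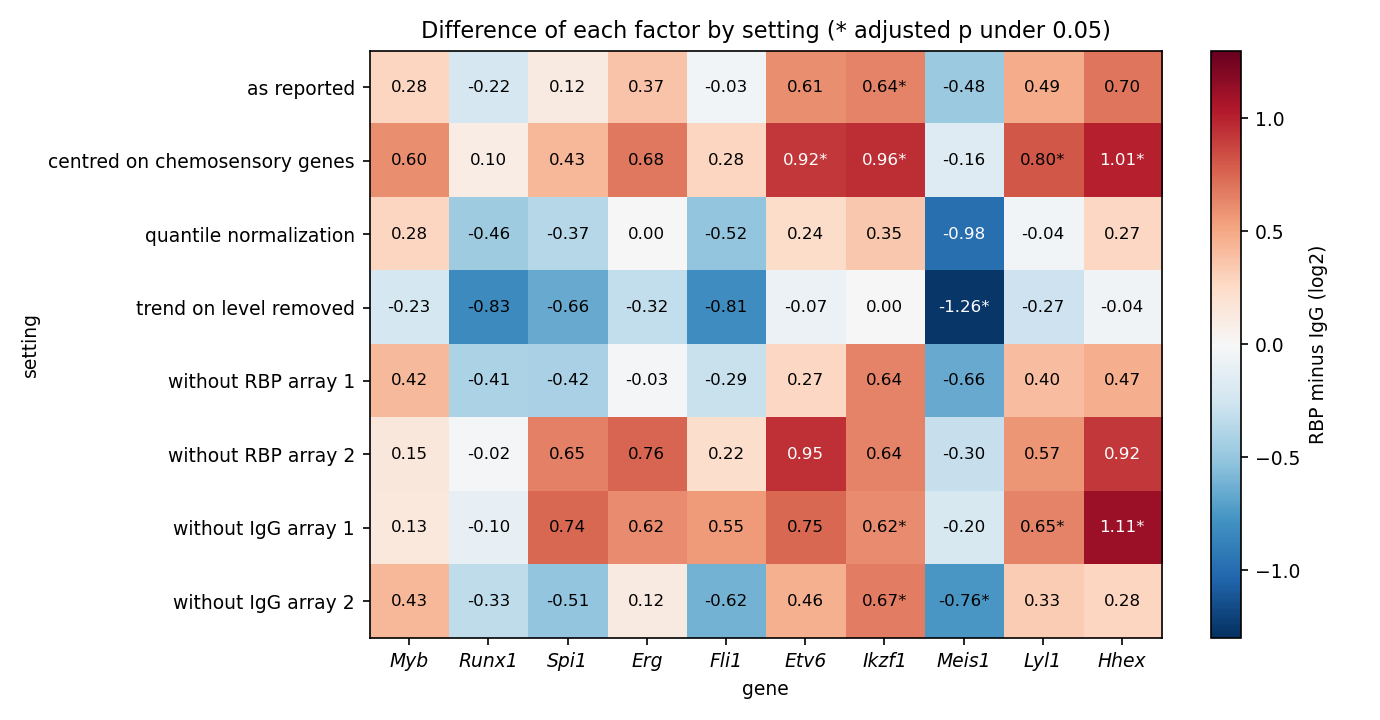
RBP minus IgG difference (log2, colour and printed value) of each factor (columns) as reported, under 3 other scalings and without each array (rows), with an asterisk where limma's adjusted p was under 0.05. Ikzf1 is positive in every row except the one with the trend on level removed, and Meis1 is negative in all of them.

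Most of the factors also differed between arrays 1 and 2 of the same antibody. Array 1 was above array 2 within both antibodies for 8 of the 10, an order found in 31.4% of all genes. Spi1 stood 1.07 higher on array 1 than on array 2 with the RBP antibody and 1.26 higher with IgG. The Erg gap was 0.79 with RBP and 0.50 with IgG, and the Fli1 gap 0.52 with RBP and 1.17 with IgG. These ETS genes moved with the array number by more than their RBP minus IgG difference. Hhex gave 0.45 with RBP and 0.84 with IgG, Etv6 gave 0.68 with RBP and 0.29 with IgG, and Meis1 gave 0.36 with RBP and 0.55 with IgG. Runx1 gave 0.38 with RBP and 0.23 with IgG, and Lyl1 gave 0.17 with RBP and 0.32 with IgG. Myb was the exception, with array 1 below array 2 at -0.27 with RBP and -0.30 with IgG, an order found in 22.9% of all genes. Ikzf1 gave 0.0034 with RBP and -0.05 with IgG, and its arrays were thus level within each antibody.

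Markers of several other cell types were also higher on array 1, though not in every list. All 5 granulocyte and mast cell markers were higher on array 1 within both antibodies, and their summed linear level was 3975 and 2116 on RBP arrays 1 and 2 and 5285 and 2532 on IgG arrays 1 and 2. All 5 hepatocyte markers had that order as well, with sums of 449 and 247 on RBP arrays and 456 and 228 on IgG arrays, as did 3 of 4 measured lymphoid markers (574 and 325 on RBP arrays, 502 and 250 on IgG arrays). Of 5 macrophage markers, 3 were higher on array 1 within both antibodies and 1 lower (sums of 680 and 401 on RBP arrays, 530 and 465 on IgG arrays), and the counts were the same for 5 endothelial and stromal markers (473 and 364 on RBP arrays, 386 and 364 on IgG arrays). Of 4 measured megakaryocyte markers, 1 had that order and 1 the opposite (447 and 425 on RBP arrays, 298 and 346 on IgG arrays), and both measured late erythroblast markers had it (277 and 107 on RBP arrays, 161 and 123 on IgG arrays). None of the 8 early erythroid progenitor markers did, and 5 had the opposite order, with sums of 12760 and 14571 on RBP arrays and 8471 and 9730 on IgG arrays. Markers below the background level were counted too, namely Mcpt8, Afp, Ttr, Adgre1, C1qa, Kdr, Pf4, Ppbp and Alas2. The Ttr gap between arrays 1 and 2 was only 0.0047 with RBP and 0.039 with IgG. In the granulocyte and mast cell sums the brightest marker, Mpo, carried the most weight. The arrays measured RNA recovered by immunoprecipitation and not the RNA of the starting cells. Fewer cells of a type, less RNA per cell and lower recovery of an RNA therefore cannot be told apart in these values. The part of other cells in the values of Spi1, Erg, Fli1 and the rest was not tested. Between antibodies, Elane, a neutrophil protease, fell to 8.74 and 7.74 on RBP arrays, against 10.09 and 9.26 on IgG arrays (-1.44, limma, adjusted p = 0.0461), and it was the 1 granulocyte marker called. That call was lost without RBP array 2 (-0.93, limma, adjusted p = 0.161), without IgG array 1 (-1.02, limma, adjusted p = 0.132) and with centring on the chemosensory genes (-1.12, limma, adjusted p = 0.0736). Cd68, a lysosomal glycoprotein of macrophages, was at 6.12 and 6.33 on RBP arrays and 7.64 and 7.99 on IgG arrays (-1.59, limma, adjusted p = 0.00568) and was the 1 macrophage marker called. The macrophage list was split. Csf1r (1.12) and Adgre1 (0.58, below the background level) had both RBP arrays above both IgG arrays, while C1qa (-0.33) and C1qb (-0.19) had negative differences. Over all genes, a linear model with no variance moderation called only 2 higher and 1 lower. All 8 early erythroid progenitor markers had mean levels above 9. In that range the share of all genes called higher was 57.8% (9 to 10), 50.1% (10 to 11) and 36.3% (above 11). Of the 8 markers, 4 were called higher (Kit, Epor, Tal1 and Zfpm1) and 0 lower, and nothing particular to them is read from that count. Those 4 calls were lost with quantile normalization, with the trend on level removed (where Tal1 turned to -0.18) and when either RBP array was left out.

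**Figure D4:**
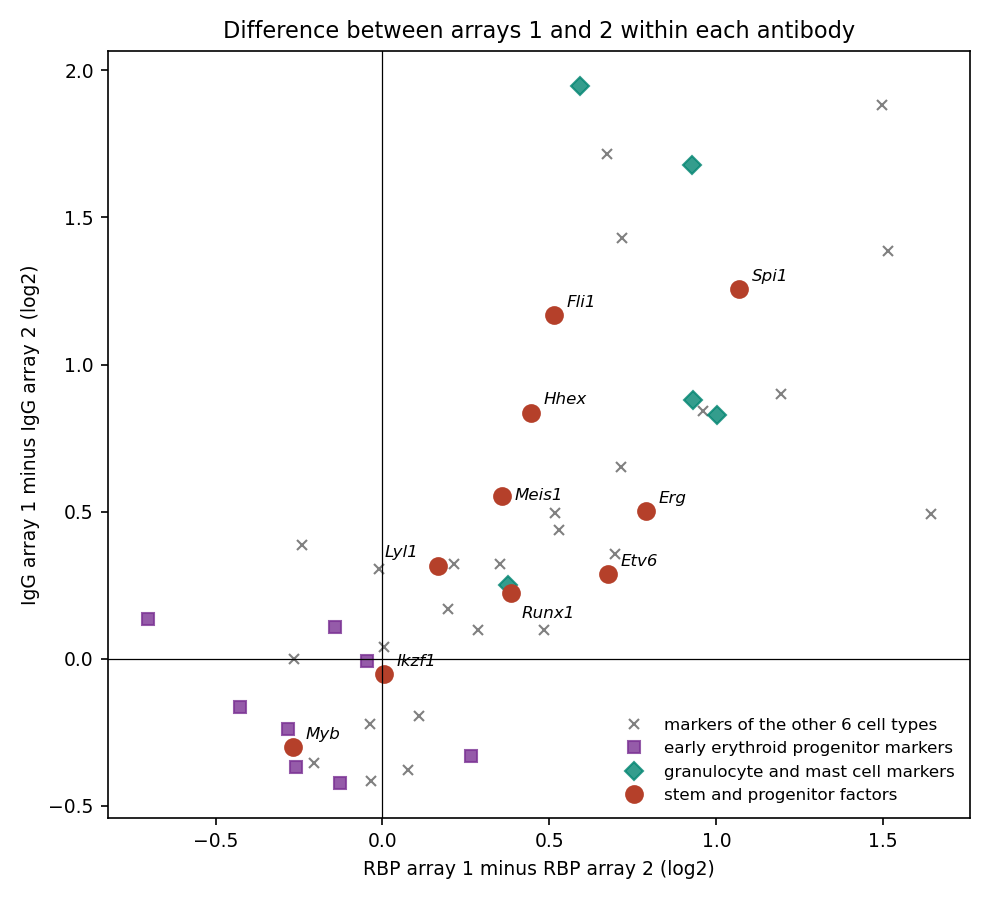
Difference between array 1 and array 2 in log2 units with the RBP antibody (horizontal axis) and with IgG (vertical axis) for the 10 factors (red circles) and the cell type markers. Spi1, Fli1, Erg and Hhex sit at the upper right with most granulocyte and mast cell markers and with markers of other cell types, such as Alb and Cd79a. Myb (-0.27 and -0.30) sits at the lower left. Of the 8 early erythroid progenitor markers, 5 are below 0 on both axes, as are some markers of other cell types, such as Cd68.

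Relatives and partners of the factors were described by the same fit. Of 18 genes in the list of other ETS factors, 8 were higher, led by the repressor Etv3 (1.54 ± 0.21), Gabpa (1.36 ± 0.17), Ets2 (1.31 ± 0.20) and Gabpb1 (1.11 ± 0.16). Gabpa encodes the subunit that carries the ETS domain of GABP. Gabpb1 encodes the other GABP subunit, which has no ETS domain but was counted in this list. Of 7 MYB relatives and coactivators, 6 were higher, including the acetyltransferase Ep300 (1.02 ± 0.19), the MLL1 methyltransferase Kmt2a (1.17 ± 0.19), its partner Men1 (1.17 ± 0.16) and Mybl1 (1.36 ± 0.25), whose mean level was below background. Of 16 Ikaros relatives and NuRD subunits, 9 were higher, with the remodeller Chd4 at 1.56 ± 0.17, Ikzf5 at 1.43 ± 0.22, the deacetylase Hdac2 at 1.07 ± 0.18 and Mta2 at 0.93 ± 0.17. Cbfb, the partner subunit of RUNX1, was higher by 1.01 ± 0.20 and was the 1 gene called of 5 in its list. Among 13 bHLH, LIM and GATA partners of LYL1, 5 were higher, including Lmo4 (0.82 ± 0.17), the GATA cofactor Zfpm1 (0.80 ± 0.19), Gata2 (0.79 ± 0.21) and Lmo2 (0.73 ± 0.14). Of 14 TALE and HOX partners of MEIS1, 2 were higher, Pknox1 (0.97 ± 0.21) and Pbx2 (0.83 ± 0.18), and the list median was -0.05. The corepressor list had 2 of 9 higher, Sin3a (1.38 ± 0.19) and Tle1 (1.26 ± 0.18), and 1 lower, Tle2 (-0.65 ± 0.15). Of 16 other stem and progenitor regulators, Zfp521 (1.26 ± 0.15) was the 1 called. Of 15 genes reported as direct targets, the survival gene Bcl2 (1.41 ± 0.19), the platelet glycoprotein Gp9 (0.82 ± 0.15) and Kit (0.69 ± 0.19) were higher and the cytokine receptor Csf2ra (-0.78 ± 0.16) was lower. These limma calls had adjusted p from 0.00558 to 0.0439. Most genes of each list lay above the background level, where 36.4% of all genes were higher, against 23.8% at any level, and within the bands of level used above, from 7 up to 11, the share ran from 47.1% to 57.8%. Nothing particular to a list is read from its count.

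The counts in these lists, each given here under the name of its list, fell under other scalings and when 1 RBP array was left out. Without RBP array 1 they were 3 ETS, 2 MYB-related and 2 Ikaros or NuRD genes, and without RBP array 2 they were 4, 1 and 3. With quantile normalization they were 2, 2 and 1, and with the trend on level removed 0, 1 and 1. The number of higher genes over all genes fell too, from 4741 to 2207 with quantile normalization and to 1000 with the trend on level removed. It also fell when 1 RBP array was left out, where the spread within a group comes from the IgG pair alone. Of the 27 called genes named from the lists, 23 no longer passed with the trend on level removed, 17 with quantile normalization, 16 without RBP array 1 and 13 without RBP array 2. None of the 27 passed without variance moderation, and 0 changed direction in any setting.

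**Figure D5:**
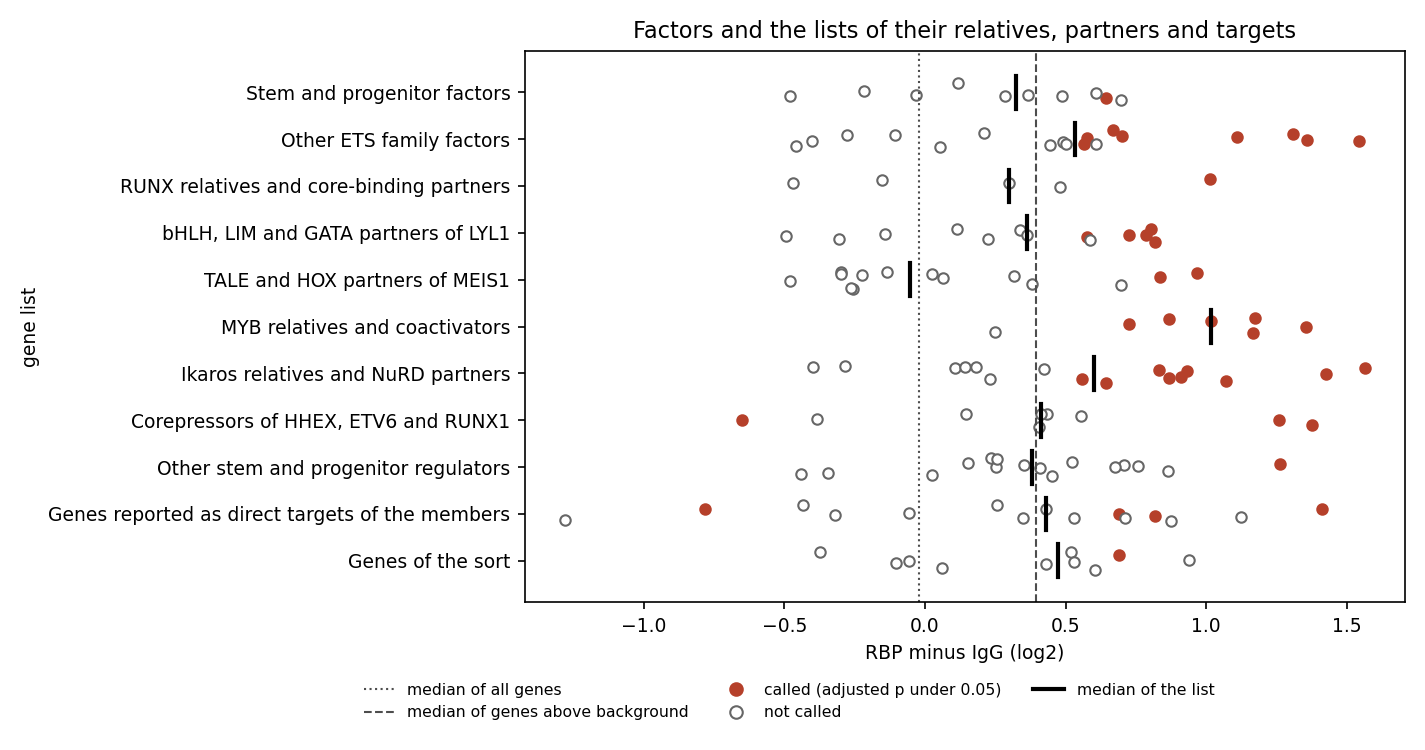
RBP minus IgG difference in log2 units (horizontal axis) of every measured gene in each list, with called genes filled, list medians as bars, and the medians of all genes (-0.02, dotted) and of genes above background (0.40, dashed). The factors lie between -0.48 and 0.70, with 1 called gene and a median of 0.32. The medians of the other lists run from -0.05 (TALE and HOX partners) to 1.02 (MYB relatives and coactivators).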

How the data were processed

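The values deposited by the authors are log2 levels per probe set, made with RMA and affy per the submitters' processing notes. Versions, background step and normalization between arrays: not given in the sources used here. Values of 1.83 to 13.87 and the mention of RMA gave the scale. Gene names came from the platform annotation. Of 35556 probe sets 21789 carried 1 symbol, and the brightest probe set by mean stood for each of 19938 genes. All columns of values were used, with no filter on level.

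RBP minus IgG was tested in R 4.3.3 with limma 3.58.1 (lmFit, eBayes), two-sided, with Benjamini-Hochberg adjustment over all genes, on 2 residual and 3.76 prior degrees of freedom. The 15 alternatives covered scaling, filters, probe sets, variance, pairing, the threshold, a loess trend (span 0.3) and leaving out each array.

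The factors and the 10 lists were chosen with earlier results of these data known. All factors were named, with up to 4 called genes per list, largest absolute difference first, or 2 where none was called. List genes with no single-symbol probe set were not analysed here. Lists share genes, such as Kit and Itga2b.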

Additional observations from a re-analysis of the deposited data

How the results depend on the processing

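With 2 arrays a group, an ordinary linear model with no variance moderation called 2 genes higher, 1 lower and 0 factors (Ikzf1 at adjusted p = 0.0983). With quantile normalization 2207 genes were higher and 553 lower, 0 factors were called, and Spi1 (-0.37), Erg (-0.0035) and Lyl1 (-0.039) turned negative. Centring on the chemosensory genes gave 317 lower genes and 4 factors called higher, with Runx1 (0.10) and Fli1 (0.28) turned positive. With the trend on level removed 1000 genes and 0 factors were higher, 1 factor (Meis1) was lower and the factors' median was -0.29; Myb (-0.23), Spi1 (-0.66), Erg (-0.32), Etv6 (-0.074), Ikzf1 (-0.0012), Lyl1 (-0.27) and Hhex (-0.045) turned negative. A filter at the median gene gave 564 lower genes, through fewer genes tested, and a threshold of 0.1 gave 2671 lower genes and 2 factors higher. Leaving out each array gave 1724 to 5153 higher and 99 to 2905 lower genes, 0 to 3 factors higher and 0 to 1 lower, a factors' median of 0.12 to 0.62, and differences of -0.51 to 0.74 for Spi1, -0.029 to 0.76 for Erg and -0.62 to 0.55 for Fli1. The labels do not say that equal replicate numbers mark a shared preparation. Across the 19938 genes, the array 1 minus array 2 differences of the 2 antibodies had a Pearson's r of 0.26, and with the replicate number as a block, 4 factors (Ikzf1, Etv6, Lyl1 and Hhex) and 5885 genes were higher and 2199 genes lower. Where no reason is given the cause was not tested. Over all 150 pairs of a factor and an alternative, 17 reversed the sign, 11 gained a call and 4 lost it with the sign kept. Ikzf1 lost its call in 5 of its 15 alternatives, counting the one with the trend on level removed, where its sign also reversed.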

Other observations

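The lists of relatives differed in how their genes ran between arrays 1 and 2. Array 1 was above array 2 within both antibodies for 9 of 18 genes in the list of other ETS factors and 10 of 16 other stem and progenitor regulators. It was so for 10 of 15 reported targets and 8 of 14 TALE and HOX genes. The bHLH, LIM and GATA list had that order for 4 of 13 genes and the opposite order for 7. Over all genes the shares were 31.4% and 22.9%. No test was made of these counts.

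Among genes of the sort, Ptprc, the pan-leukocyte phosphatase CD45, gave 8.66 and 7.77 on RBP arrays and 7.85 and 6.71 on IgG arrays. Fcgr3, a gene of CD16, was at 6.23 on RBP array 2 and at 6.64 and 5.55 on IgG arrays 1 and 2, and was highest on RBP array 1. Fcgr2b, a gene of CD32, gave 6.80 and 5.99 on RBP arrays and 6.98 and 5.68 on IgG arrays. Itgam, the myeloid integrin CD11b, gave 6.38 and 5.47 on RBP arrays and 5.72 and 5.07 on IgG arrays. All of these were higher on array 1 than on array 2 within both antibodies, as Cd34 was. Kit and Tfrc, the gene of CD71, had the opposite order, with Kit at 11.63 and 11.89 on RBP arrays and 10.88 and 11.25 on IgG arrays and Tfrc at 10.17 and 10.45 on RBP arrays and 9.59 and 9.82 on IgG arrays. Itga2b, the gene of CD41, gave 7.97 and 7.90 on RBP arrays and 7.32 and 7.70 on IgG arrays, and Cd3e gave 5.52 and 5.78 on RBP arrays and 6.02 and 6.02 on IgG arrays. Ly6g lay below the background level.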
